A study of Vitis vinifera with 23 samples.

Results

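The heat stress regulators described here are 3 genes, followed through every sample of a transcriptome series on grape berries. They are a heat shock factor gene (VIT_04s0008g01110, also written Vv04s0008g01110), the gene for multiprotein-bridging factor 1, MBF1 (VIT_11s0016g04080, Vv11s0016g04080), and a gene annotated as a calmodulin-binding heat shock protein (VIT_14s0006g01030, Vv14s0006g01030). They were chosen by identifier, and all 3 were found among the 29970 genes of the deposited table. The functional annotation names the first gene heat shock transcription factor A6B and the second MBF1C, while the study's text calls the first a factor of the 2A type, so it is called here simply the heat shock factor gene. Berries of Vitis vinifera cv. Sauvignon blanc, whole but without seeds, came from field-grown vines. In the exposed panels the leaves and lateral shoots around the bunches had been taken away on 1 side of the canopy, and in the control panels the bunches stayed shaded. Exposed and control berries were compared at 4 stages, labelled EL31 and EL33 (green berries), EL34 (véraison, when ripening begins) and EL38 (ripe), with 3 samples per group except the EL38 control, which held 2 of the 23 samples. The label EL34 is that of the sample titles, and the study's text gives its véraison berries another stage number. In the study each biological replicate was 1 panel of 4 neighbouring vines, with control and exposed panels alternating over 2 adjacent rows of 1 vineyard. The study describes the treatment as one that raised the light on the bunches while berry temperature changed little.

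Heat shock factors are transcription factors that bind heat shock elements in promoters and switch on genes for chaperones, the proteins that keep other proteins folded. In Arabidopsis and tomato, factors of the A2 type are themselves strongly induced by heat and high light and prolong the response, and in Arabidopsis MBF1c is a transcriptional coactivator needed for tolerance of heat. Levels are given in FPKM, the count of sequenced fragments divided by transcript length and by the size of the library. Differences are on the scale log2(FPKM + 0.1), exposed minus control, with a standard error (SE) and a p-value from limma adjusted by the Benjamini-Hochberg method over the 20205 genes tested. A gene is said to have risen or fallen where the adjusted p was at most 0.05.

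All 3 genes were detected in all 23 samples and passed the filter on low values. Exposure raised 2 of the 3 at EL31, 2 at EL33, 3 at EL34 and 1 at EL38. Over all genes tested, 3.8% rose at EL31, 2.54% at EL33, 2.17% at EL34 and 1.52% at EL38, while 0.881%, 0.95%, 1.16% and 3.26% fell at these stages. Both the heat shock factor gene and MBF1 stand on lists that the study drew up from exposure responses in these same samples, so their rise is no independent evidence of its direction. The calmodulin-binding gene came from a list drawn up on development in control berries, but the study then singled it out as a listed gene that responded to exposure in these samples, so the same holds for it.

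The heat shock factor gene was higher in every exposed sample than in any control sample of its stage, a pattern over the 4 stages that 1.12% of the genes tested shared. By stage, exposed lay wholly above control for 11.3% of genes at EL31, 8.96% at EL33, 9.16% at EL34 and 12.6% at EL38. At EL31 it had 358, 360 and 298 FPKM in exposed berries, against 76.8, 92.8 and 77.6 FPKM in control berries. The groups lay far apart, and the log2 difference was 2.04 (SE 0.41, limma adjusted p = 0.00591), a 4.11-fold rise. In whole-berry samples, more cells that express a gene and more RNA per cell cannot be told apart.

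Green berries at EL33 gave the highest levels of the series. There the heat shock factor gene reached 543, 531 and 371 FPKM in exposed berries, against 166, 258 and 236 FPKM in control berries. Exposed and control samples did not overlap. Its log2 difference of 1.13 (SE 0.41, 95% interval 0.27 to 2.0) did not pass the test, with a limma adjusted p of 0.154. The same difference passed when EL31, EL33 and EL34 were fitted without the EL38 samples, whose replicates of this gene spread most (adjusted p = 0.0113). That fit was chosen after seeing the data. In the other settings the difference did not pass, with adjusted p up to 0.239. With single samples left out it passed in 2 of 23 cases, each lacking 1 of the EL38 control samples. In the remaining cases the adjusted p reached 0.367.

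Véraison gave the highest log2 difference of the 4 stages as fitted, though no difference between stages passed for this gene. Exposed berries at EL34 had 170.4, 313.3 and 262.5 FPKM of the heat shock factor transcript, against 32.3, 29.5 and 30.4 FPKM in control berries. The control samples agreed closely, whereas the exposed ones spread, with a coefficient of variation of 29.1% in exposed and 4.64% in control berries. The log2 difference was 2.97 (SE 0.41, limma adjusted p = 0.00028), a 7.83-fold rise that ranked 206th of 20205 genes.

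In ripe berries the factor was low in both treatments, with 33.99, 39.16 and 89.16 FPKM in exposed berries against 4.33 and 19.1 FPKM in control berries. The 2 control samples differed 4.41-fold and the 3 exposed samples spanned 2.62-fold, yet the groups did not overlap. The log2 difference was 2.42 (SE 0.46, limma adjusted p = 0.00549), and its size rests on 1 control sample. Without control replicate 1 it was 1.36 (adjusted p = 0.11), and without control replicate 2 it was 3.47 (adjusted p = 0.000304). Both EL38 control samples carry submitter numbers in the lower of 2 number ranges, and against the 1 exposed sample of that range the difference was 1.89. With the number range as a block in the model the EL38 call was lost (adjusted p = 0.302).

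**Figure D1:**
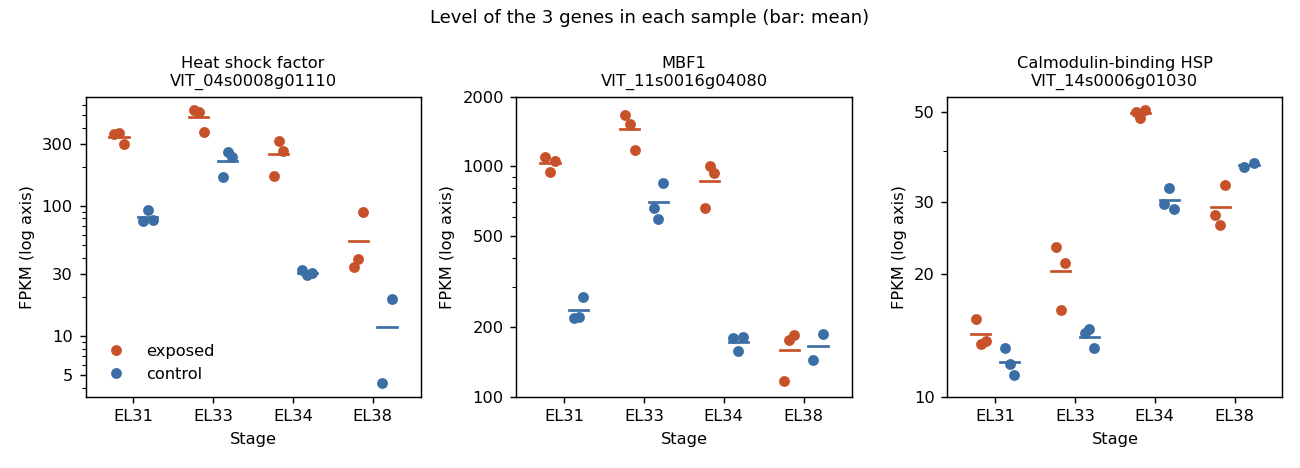
FPKM of the 3 genes (log axis) in each exposed (left) and control (right) sample at the 4 stages, with a bar at each group mean. Exposed samples of the heat shock factor gene lie above the control samples at every stage, MBF1 overlaps at EL38, and the calmodulin-binding gene lies lower in exposed than in control berries at EL38.

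MBF1 was the most abundant of the 3 transcripts per length, with 117 to 1664 FPKM in exposed berries against 145 to 841 FPKM in control berries. At EL31 it had 1094, 941 and 1056 FPKM in exposed berries, against 220, 223 and 272 FPKM in control berries. The replicates were tight and the log2 difference was 2.12 (SE 0.20, limma adjusted p = 5.16e-06), close in size to that of the heat shock factor gene.

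At EL33 the MBF1 transcript stood at 1664, 1521 and 1171 FPKM in exposed berries, against 658, 589 and 841 FPKM in control berries. Every exposed sample lay above every control sample, with a log2 difference of 1.06 (SE 0.20, limma adjusted p = 0.00533). The call was lost when EL33 was fitted alone (adjusted p = 0.157), a fit in which 8 of the genes tested passed against 706 in the joint fit. At EL34 the levels were 661, 997 and 929 FPKM in exposed berries, against 180, 158 and 182 FPKM in control berries, a log2 difference of 2.29 (SE 0.20, limma adjusted p = 2.83e-06).

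Ripe berries broke the pattern for MBF1. It had 117, 175 and 185 FPKM in exposed berries, against 145 and 186 FPKM in control berries, and the groups overlapped. The log2 difference was -0.07 (SE 0.22, limma adjusted p = 0.949), with a 95% interval of -0.53 to 0.39, so a rise of the size seen at the earlier stages lies outside it. Its sign depended on single samples, with values from -0.26 to 0.13 as each sample was left out in turn. Within the lower number range it was -0.48.

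The calmodulin-binding gene was less abundant per length and moved less. At EL31 it had 15.6, 13.5 and 13.7 FPKM in exposed berries, against 13.19, 12.002 and 11.28 FPKM in control berries. The samples did not overlap, but the log2 difference of 0.23 (SE 0.12, limma adjusted p = 0.401) did not pass. Levels at EL33 were 23.4, 16.3 and 21.3 FPKM in exposed berries, against 14.3, 14.6 and 13.1 FPKM in control berries, and the log2 difference of 0.52 (SE 0.12, limma adjusted p = 0.0184) passed. That call was lost without 1 sample of EL33 in 5 of 6 cases, with adjusted p up to 0.0999, and when EL33 was fitted alone (adjusted p = 0.239).

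At EL34 this gene reached its highest level, 50.02, 48.25 and 50.52 FPKM in exposed berries, against 29.7, 32.5 and 28.9 FPKM in control berries. The exposed samples stood well clear of the control samples, with a log2 difference of 0.71 (SE 0.12, limma adjusted p = 0.00139). At EL38 the order turned round, with 27.94, 26.45 and 33.02 FPKM in exposed berries against 36.6 and 37.5 FPKM in control berries. All exposed samples lay below both control samples there, as was so for 18.4% of genes, but the log2 difference of -0.35 (SE 0.13, limma adjusted p = 0.14) did not pass.

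**Figure D2:**
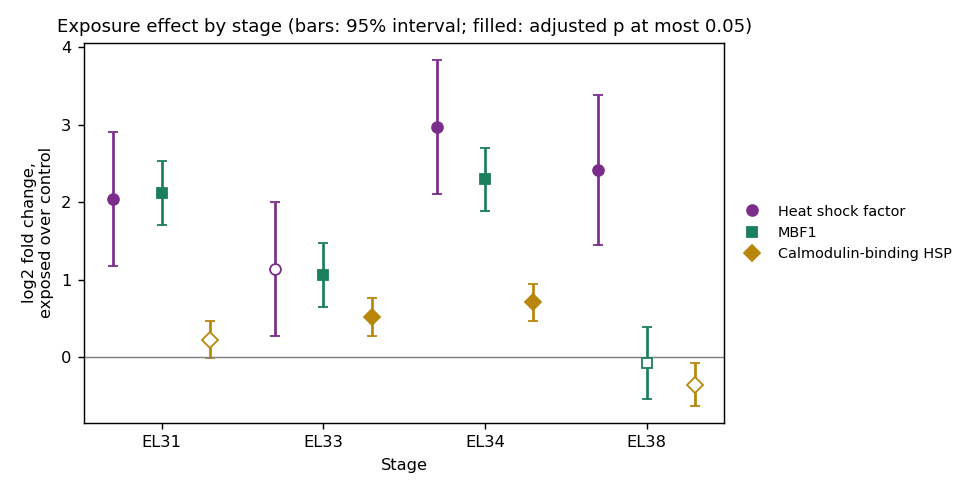
Log2 fold change, exposed over control, of the 3 genes at each stage, with 95% intervals from the limma fit and filled symbols where the adjusted p was at most 0.05. The heat shock factor gene stays above 0 at all stages, whereas MBF1 drops to -0.07 and the calmodulin-binding gene to -0.35 at EL38.

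Whether exposure acted alike at the 4 stages was tested directly. For MBF1 the effect differed between stages (moderated F = 27.6, limma adjusted p = 0.000879), as it did for 2.1% of the genes tested. Its effect at EL38 was lower than at EL34 by a log2 difference of -2.37 (SE 0.29, adjusted p = 0.000678), a contrast passed downward by 0.846% of genes. The calmodulin-binding gene showed the same kind of difference (moderated F = 14.1, limma adjusted p = 0.0121), with an effect at EL38 that was -1.06 (SE 0.17, adjusted p = 0.00731) relative to EL34. Its F test lost the call without EL38 control replicate 1 or replicate 2 and with the number range block, where the adjusted p lay between 0.0503 and 0.0657. For the heat shock factor gene no difference between stages passed (moderated F = 3.50, limma adjusted p = 0.278), and the change of its effect at EL38 relative to EL34 was -0.55 with a 95% interval of -1.85 to 0.75. Differences of the effect between EL31 and EL33, and between EL33 and EL34, did not pass for any of the 3 genes. Of all 20205 genes only 2 and 23 passed, so this does not show that the effects were alike. For MBF1 they were -1.06 (95% interval -1.64 to -0.47) and 1.23 (0.65 to 1.81). For the heat shock factor gene they were -0.91 (-2.13 to 0.32) and 1.84 (0.61 to 3.06). For the calmodulin-binding gene they were 0.29 (-0.05 to 0.63) and 0.19 (-0.15 to 0.54).

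Averaged over the 4 stages, exposure raised the heat shock factor gene by 2.14 (SE 0.21, limma adjusted p = 2.09e-06), which ranked 93rd of 20205 genes, where 6.44% of all genes rose and 6.09% fell. MBF1 rose by 1.35 (SE 0.10, limma adjusted p = 7.87e-08) and the calmodulin-binding gene by 0.27 (SE 0.06, limma adjusted p = 0.00486). The exact two-sided permutation test, with labels exchanged within stages in 80000 arrangements, gave p = 1.25e-05 for the heat shock factor gene, the smallest it can give, p = 0.000237 for MBF1 and p = 0.0225 for the calmodulin-binding gene. For MBF1 and the calmodulin-binding gene this average covers stages that differ in the effect itself. The last 2 digits of the submitter numbers recur from stage to stage within a treatment. If they mark the same panels sampled again, exchanging labels separately in each stage counts too many independent arrangements. The permutation p-values would then be too small.

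In control berries the ratio of the heat shock factor gene to its putative coactivator within a sample was lower at the last 2 stages than at the green stages. In exposed berries its values at EL38 spanned those of all earlier stages. Changes of the ratio between stages were not tested. This FPKM ratio was 0.282 to 0.383 in exposed and 0.286 to 0.417 in control berries at EL31. At EL33 it was 0.317 to 0.349 in exposed and 0.252 to 0.438 in control berries. The treatments overlapped at both green stages. At EL34 the ratio was 0.258 to 0.314 in exposed berries against 0.167 to 0.186 in control berries. At EL38 it was 0.289, 0.223 and 0.482 in exposed berries against 0.0299 and 0.102 in control berries. All exposed samples thus lay between 0.223 and 0.482, while every control sample of the last 2 stages lay below every control sample of the green stages. Over the 4 stages the log2 ratio differed by 0.79 between exposed and control berries (exact two-sided permutation p = 0.00626), and by 0.57 without EL38 control replicate 1. This mean pools differences of -0.08 at EL31, 0.07 at EL33, 0.68 at EL34 and 2.49 at EL38, the last with 2 control samples. Its p-value therefore does not test a change between stages, and it carries the limit on recurring sample numbers given above. Within a single stage the smallest p these group sizes allow is 0.1, and that was reached at EL34 and EL38.

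**Figure D3:**
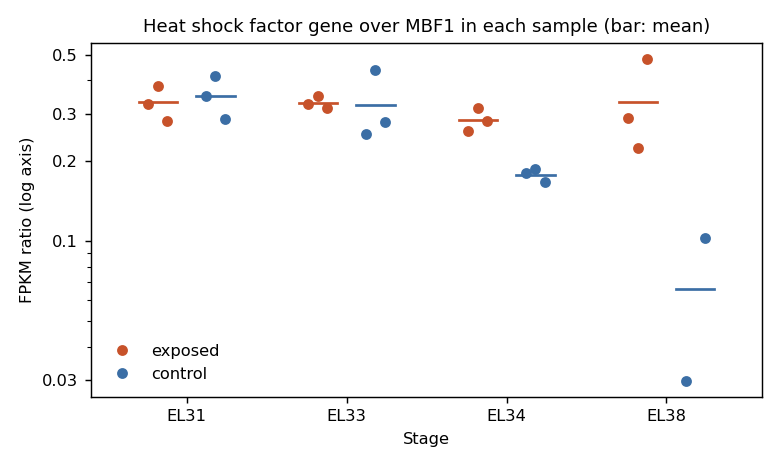
FPKM of the heat shock factor gene divided by that of MBF1 (log axis) in each exposed (left) and control (right) sample, with a bar at each group mean. Treatments overlap at EL31 and EL33 and separate at EL34 and EL38, where the lowest control sample is at 0.0299.

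Both the heat shock factor gene and MBF1 also changed over development. In control berries the heat shock factor gene rose by 1.40 (SE 0.41, limma adjusted p = 0.014) from EL31 to EL33, then fell by 2.81 (adjusted p = 2.13e-05) to EL34 and fell by 1.74 (adjusted p = 0.00491) to EL38. Such changes were common, since 11.5% of genes rose in the first step, 24.2% fell in the second and 23.6% fell in the third. The last of these falls rests on control replicate 1 of EL38, without which it was -0.68 (adjusted p = 0.229). MBF1 in control berries likewise rose by 1.54 (adjusted p = 8.71e-06) and fell by 1.99 (adjusted p = 2.72e-07), and its last step of -0.08 (adjusted p = 0.825) did not pass.

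The steps in exposed berries are given as values, since the direct comparison of treatments, the exposure effect at EL33 minus that at EL31, was -0.91 (limma adjusted p = 1) for the heat shock factor gene and -1.06 (adjusted p = 0.491) for MBF1 and did not pass. From EL31 to EL33 the heat shock factor gene differed by 0.49 (limma adjusted p = 0.408) and MBF1 by 0.48 (adjusted p = 0.0698), neither of which passed. From EL33 to EL34 the difference was -0.98 (adjusted p = 0.0657) for the factor and MBF1 fell by 0.76 (adjusted p = 0.00438), where 21% of genes fell. Between EL34 and EL38 both fell steeply in exposed berries, the heat shock factor gene by 2.29 (adjusted p = 0.000136) and MBF1 by 2.44 (adjusted p = 1.3e-08), where 29.5% of genes fell.

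The calmodulin-binding gene ran against this course from EL33 to EL34. In exposed berries it rose by 0.50 (limma adjusted p = 0.00269) from EL31 to EL33, where 11.7% of genes rose, and by 1.30 (adjusted p = 2.27e-07) to EL34, where 21.4% rose, then fell by 0.77 (adjusted p = 2.01e-05) to EL38. In control berries its rise of 1.11 (adjusted p = 5.06e-07) from EL33 to EL34, where 23% of genes rose, passed, and the steps of 0.21 (adjusted p = 0.191) before it and 0.29 (adjusted p = 0.0786) after it did not.

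Ordered by mean level, the heat shock factor gene stood at 482 ± 96.3 FPKM (SD, n = 3) in exposed berries at EL33, which no other group reached. It was followed by exposed berries at EL31 (339 ± 35.3) and EL34 (249 ± 72.5) and control berries at EL33 (220 ± 48.1), a run in which each group overlapped the next. Control berries at EL31 (82.4 ± 9.01) overlapped exposed berries at EL38 (54.1 ± 30.5), above control berries at EL34 (30.7 ± 1.42) and EL38 (11.7 ± 10.4, n = 2). MBF1 had the same first 5 groups in the same order, from 1452 ± 253.7 FPKM in exposed berries at EL33 to 238 ± 29.0 FPKM in control berries at EL31, and its last 3 groups, between 159 and 174 FPKM, overlapped one another. The calmodulin-binding gene had its highest mean, 49.6 ± 1.19 FPKM, in exposed berries at EL34 and its lowest, 12.2 ± 0.965 FPKM, in control berries at EL31.

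Replicates of the heat shock factor gene and MBF1 did not always rank alike. The same sample was lowest for both in 6 of 8 groups and highest for both in 4 of 8. Within the 2 ranges of submitter numbers, the exposure effect on the factor was 2.08 and 2.08 at EL31, 1.39 and 0.91 at EL33, and 2.46 and 3.23 at EL34, with the lower range given before the higher. For MBF1 the values were 2.30 and 1.88, then 1.42 and 0.67, then 1.97 and 2.40. The direction held in both ranges at these 3 stages. The calmodulin-binding gene gave 0.69 and 0.50 at EL33, 0.68 and 0.77 at EL34, and -0.41 in the lower range at EL38. What the number ranges stand for is not given in the sources used here.

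Other heat shock factor genes annotated in the study's lists, as far as these were held here, numbered 3, and they did not all behave as this one. The gene VIT_00s0179g00150, also annotated as A6B, had 2.91 to 35.1 FPKM in exposed berries against 0.732 to 8.62 FPKM in control berries. It rose at each stage, by 2.24 at EL31 (limma adjusted p = 0.00114), 1.70 at EL33 (adjusted p = 0.0155), 3.24 at EL34 (adjusted p = 3.32e-05) and 2.54 at EL38 (adjusted p = 0.00204), as did 0.307% of the genes tested. The EL33 call was lost without exposed replicate 1 or control replicate 1 or 2 of that stage, and in all in 4 of 34 alternatives, with adjusted p up to 0.126. The EL38 call was lost with the number range block (1.53, adjusted p = 0.219) and with EL38 fitted alone (adjusted p = 0.294), and the EL34 call with EL34 fitted alone (adjusted p = 0.0663). The study lists it too as responding to exposure in these samples. Per length it was the scarcer of the pair, since the heat shock factor gene exceeded it 5.59 to 23.3 times in exposed and 5.92 to 30.4 times in control samples. How reads shared by such related genes were assigned is not given in the sources used here.

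The other two factors showed no rise. HSF3 (VIT_16s0039g01840) had 71.5 to 91.5 FPKM in exposed berries at EL34, against 106 to 112 FPKM in control berries. It fell there by 0.39 (SE 0.10, limma adjusted p = 0.0463), a call lost in 26 of 34 alternative settings, and by 0.26 (adjusted p = 0.00315) in the mean of 4 stages, which was lost with the number range block (-0.21, adjusted p = 0.0578). The A4A gene VIT_10s0003g01770 had a mean difference of -0.04 (SE 0.09, limma adjusted p = 0.813), with treatments overlapping at 6.28 to 20.7 FPKM in exposed and 7.98 to 20.4 FPKM in control berries.

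**Figure D4:**
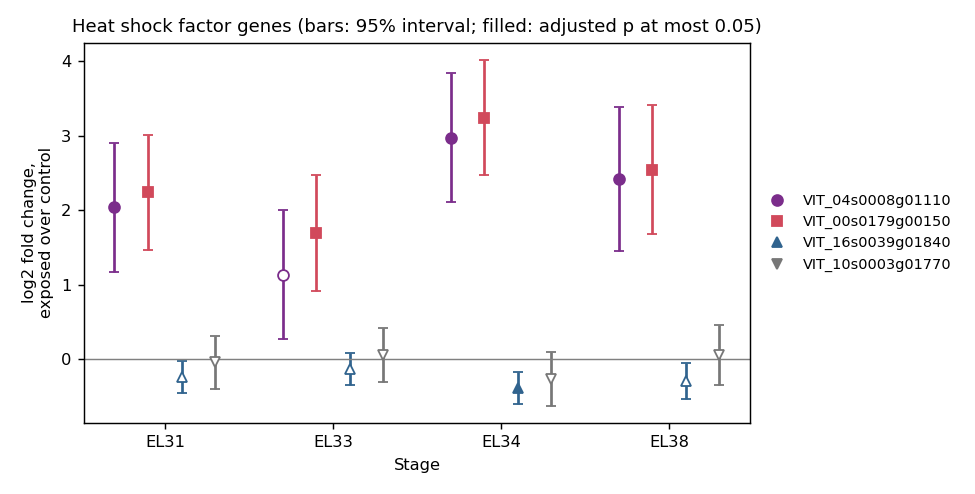
Log2 fold change, exposed over control, of the 4 heat shock factor genes at each stage, with 95% intervals and filled symbols where the adjusted p was at most 0.05. The 2 genes annotated as A6B lie between 1.13 and 3.24, and the other 2 lie near or below 0.

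The transcripts most like the heat shock factor gene over the 23 samples were those of chaperones and their partners. Its 3 highest Pearson correlations on the log2 scale were with BAG5 (VIT_01s0146g00150, r = 0.969), a co-chaperone of the HSP70 system, with HSP101 (VIT_17s0000g07190, r = 0.965), a chaperone that pulls apart protein aggregates, and with a class I small heat shock protein (VIT_13s0019g02740, r = 0.963). These points share the treatments and the stages, so the correlations describe the pattern only. BAG5 had 30.3, 34.5 and 72.0 FPKM in exposed berries at EL38 against 5.22 and 18.8 FPKM in control berries, the same split between the control samples as in the heat shock factor gene. Its exposure effects were 2.18 at EL31, 1.15 at EL33 (limma adjusted p = 0.136), 3.62 at EL34 and 2.08 at EL38, and like those of the factor they passed at every stage but EL33. Without EL38 control replicate 1 or exposed replicate 3 the EL38 call of BAG5 was lost (adjusted p = 0.222 and 0.0536), as it was with the replicate block (1.69, adjusted p = 0.0947), the number range block (1.60, adjusted p = 0.378) and EL38 fitted alone (adjusted p = 0.371). HSP101 rose at all 4 stages, by 2.10, 1.52, 2.93 and 1.50 on the log2 scale.

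MBF1 was most like 3 other genes, VIT_13s0047g00110, VIT_00s0189g00050 and VIT_07s0031g02510 (r = 0.968, 0.964 and 0.959 over 23 samples), and the calmodulin-binding gene like VIT_05s0094g00330, VIT_06s0004g07560 and VIT_07s0191g00230 (r = 0.958, 0.958 and 0.955). None of these is named in the lists used here, and none is shared with the heat shock factor gene.

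Chaperones are the classical targets of heat shock factors, and 2 lists of them were set beside the 3 genes. The first held 41 chaperone genes from the study's list of developmental markers, chosen on control berries and held here only in part. Of these 41, 4 also stand in its exposure lists. In the mean of 4 stages 14 of the 41 rose, 1 fell and 26 did not pass, with a median of 0.11 against -0.03 over all genes tested, of which 6.44% rose and 6.09% fell. By stage, 11 rose and 1 fell at EL31, 6 and 0 at EL33, 9 and 0 at EL34, and 4 and 2 at EL38, beside 3.8%, 2.54%, 2.17% and 1.52% of all genes that rose and 0.881%, 0.95%, 1.16% and 3.26% that fell. The EL38 count of 4 risen genes became 0 without EL38 control replicate 1 and 2 without control replicate 2. The EL33 count of 6 became 2 without exposed replicate 1 or control replicate 2, 3 without control replicate 1 and 0 with EL33 fitted alone, and the EL34 count of 9 became 2 with EL34 fitted alone. Without the 4 shared genes, 10 of 37 rose and 1 fell in the mean, with a median of 0.05. The highest were the class I small heat shock protein gene at 3.20 (SE 0.25, limma adjusted p = 1.42e-07), HSP81-1 (VIT_02s0025g00280), an HSP90 chaperone, at 2.79 (adjusted p = 5.96e-09), and a chaperonin (VIT_01s0011g04990) at 1.77 (adjusted p = 2.98e-07), all 3 also in the exposure lists. The gene that fell was VIT_13s0067g00990, annotated only as a heat shock protein, at -0.36 (adjusted p = 0.0101).

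**Figure D5:**
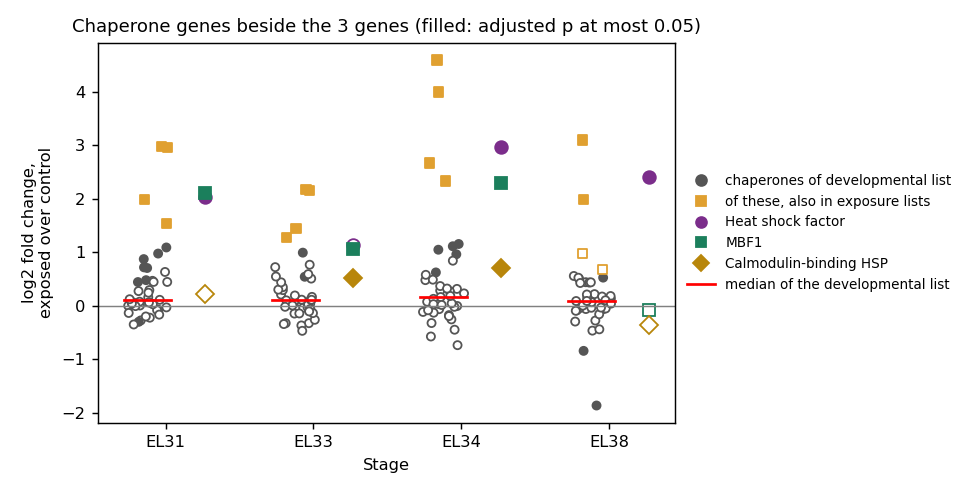
Log2 fold change, exposed over control, of 41 chaperone genes of the developmental list (dots, squares where also in the exposure lists) and of the 3 genes at each stage, with filled symbols where the adjusted p was at most 0.05. The list medians lie between 0.09 and 0.16, below the heat shock factor gene at every stage.

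The second list held 50 chaperone genes that the study had chosen for their response to exposure in these samples, so its counts describe the choice. Of these, 46 rose at EL31, 46 at EL33, 47 at EL34 and 35 at EL38, where MBF1 did not rise. Leaving out EL38 control replicate 1 reduced the EL38 count to 7. Their median exposure effect was 3.35 at EL31, 2.42 at EL33, 3.58 at EL34 and 2.05 at EL38. For 0 of the 50 did the effect at EL33 differ from that at EL31 or EL34 by limma's adjusted p, against 18 and 28 at an unadjusted p under 0.05. The effect at EL38 was lower than at EL34 for 6 of the 50 by adjusted p, beside 0.846% of all genes. At an unadjusted p under 0.05 it differed for 34. The median of this difference was -1.52, against -0.03 over all genes tested. The unadjusted counts have no share of all genes beside them. HSP70 (VIT_11s0037g00510) had 115, 241 and 267 FPKM in exposed berries at EL38, against 37.7 and 55.6 FPKM in control berries, and rose by 2.09 (SE 0.35, limma adjusted p = 0.0024). The chloroplast gene HSP26a (VIT_01s0010g02290) rose by 4.05, 2.91, 4.47 and 1.97 at the 4 stages. A DnaJ co-chaperone (VIT_01s0011g04820) rose at EL31, EL33 and EL38, and its 1.18 (limma adjusted p = 0.132) at EL34 did not pass. Its EL34 samples did not overlap, with 475, 513 and 445 FPKM in exposed against 213, 226 and 195 FPKM in control berries. At EL38 they spread more, with 29.6, 37.1 and 94.1 FPKM against 5.70 and 16.4 FPKM.

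Calmodulin is a sensor of cellular calcium. In the part of the developmental list held here, 13 other genes annotated to it stand with the calmodulin-binding heat shock protein gene. By limma's adjusted p, 0 of the 13 rose at any stage, with 1 at EL33 and 0 at the other stages rising at an unadjusted p under 0.05, and 2 fell at EL38. Over all genes 1.52% to 3.8% rose at a stage and 3.26% fell at EL38, so a count of 0 in a list this short is no result about the list. In the mean of 4 stages 1 fell, the IQD33 gene VIT_12s0059g00290 at -0.33 (limma adjusted p = 0.0156), and the median of the 13 was -0.05 against -0.03 over all genes.

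The labels of treatment and tissue were checked on other genes. Flavonol synthase (VIT_18s0001g03470), a gene induced by light, had 18.005 to 74.48 FPKM in exposed against 0.517 to 7.65 FPKM in control berries. The study lists this gene as raised by exposure in these samples, so it is no independent check of the treatment. The photosynthesis genes PsbS (VIT_18s0001g02740), CAB-1 (VIT_19s0014g00160) and LHCA2 (VIT_01s0010g03620) were detected at all stages and were highest at EL31. Relative depth, judged from the lowest FPKM values, ranged from 0.686 to 2.60 times the median sample, and the sources used here give reads per group of samples, not per library.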

How the data were processed

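RNA of 23 samples was sequenced as Illumina TruSeq libraries. Per the study's methods and the submitters' processing notes, the authors demultiplexed with CASAVA 1.8.2, aligned reads to the grapevine PN40024 V1 genome with TopHat and deposited Cufflinks FPKM values for 29970 genes. The study's own test needs aligned reads and was not used here. One control sample of EL38 had been left out by the authors.

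The 20205 genes whose mean reached 1 FPKM in any of the 8 groups were tested on log2(FPKM + 0.1) with limma 3.58.1 (R 4.3.3; 8 group means, moderated variances with trend, Benjamini-Hochberg within each contrast). Single values were tested by exact permutation within stages in Python 3.11.15. Alternatives were other pseudocounts, no filter, median-of-ratios and quantile scaling, blocks, separate stages and leaving out each sample. The scripts were tested on simulated data.

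The members, gene lists and tests were chosen with earlier results of these data known. Named genes were the 3 members, the listed heat shock factor genes, BAG5, 4 check genes, 5 chaperones, the 3 most correlated genes per member, and up to 3 genes at either end of those passing in each developmental list. The developmental list was held only in part. No label ties a sample to a panel of vines, so p-values measure the spread between these samples. The 3 identifiers matched 0 entries of the RefSeq table used, and no sequence is shown.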

Additional observations from a re-analysis of the deposited data

Results flagged for a closer look

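The exposure effect on MBF1 (VIT_11s0016g04080) differed between the 4 stages, with a moderated F of 27.6 (limma adjusted p = 0.000879). Its effect at EL38 minus that at EL34 was -2.37 (adjusted p = 0.000678), with exposed above control in 3 of 3 samples at EL34 and overlap at EL38.

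The calmodulin-binding gene (VIT_14s0006g01030) also differed between stages, with a moderated F of 14.1 (limma adjusted p = 0.0121) and an effect at EL38 minus that at EL34 of -1.06 (adjusted p = 0.00731). Its 3 exposed samples were above the control samples at EL34 and below them at EL38.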

How the results depend on the processing

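For the 3 genes, 49 results were recomputed, and 385 of 398 values from other settings kept their direction and their side of the threshold. Quantile normalization carried the MBF1 difference from EL31 to EL33 in exposed berries to 0.82, that of the heat shock factor gene from EL33 to EL34 in exposed berries to -1.16 and the calmodulin-binding gene in control berries to 0.41 (EL31 to EL33) and 0.36 (EL34 to EL38) past the threshold, and turned MBF1 from EL34 to EL38 in control berries to 0.011. Median-of-ratios scaling likewise gave MBF1 0.54 from EL31 to EL33 in exposed berries, and the random effect for the last digits of the sample number let the -0.98 of the heat shock factor gene from EL33 to EL34 pass. Calls were lost with the number range block for the heat shock factor gene at EL38 (1.89) and the F of the calmodulin-binding gene (13.4). With each stage fitted alone, which has fewer samples, they were lost for MBF1 at EL33 (1.06), the calmodulin-binding gene at EL33 (0.52) and the heat shock factor gene at EL38 (2.42). Fitting EL31, EL33 and EL34 without EL38, an alternative chosen after seeing the data, let the heat shock factor gene pass at EL33 (1.13).

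Leaving out each sample in turn changed 24 of 1058 values. The ranges of the results concerned were, for the heat shock factor gene, 0.94 to 1.31 for exposure at EL33, 1.36 to 3.47 for exposure at EL38, -1.61 to 0.50 for the effect at EL38 minus that at EL34, -1.17 to -0.73 from EL33 to EL34 in exposed berries, 1.27 to 1.59 from EL31 to EL33 in control berries and -2.80 to -0.68 from EL34 to EL38 in control berries. For MBF1 they were -0.26 to 0.13 for exposure at EL38, 1.08 to 1.41 for the effect at EL34 minus that at EL33, 0.38 to 0.63 from EL31 to EL33 in exposed berries and -0.26 to 0.11 from EL34 to EL38 in control berries. For the calmodulin-binding gene they were 0.41 to 0.66 for exposure at EL33, 0.25 to 0.34 from EL34 to EL38 in control berries and 9.70 to 24.8 for the F. The A4A gene, never called, changed sign at EL31 with quantile scaling (0.0093) and in the mean with the number range block (0.0040), and without single samples ran from -0.11 to 0.34 at EL33, from -0.11 to 0.23 at EL38 and from -0.088 to 0.025 in the mean.

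Same-numbered samples correlated in their deviations from -0.03 to 0.15 over 11 pairs, and 6 of 12 exposed samples correlated best with the control of their own number. EL38 exposed replicate 3 had no control of its number. The share of matches without any pairing was not estimated, so this count does not decide whether the numbers pair samples. The main fit did not pair them. With the replicate block the heat shock factor gene at EL38 had 1.99 (adjusted p = 0.046), 12 of the 50 listed chaperones rose at EL38 against 35, and no call of the 3 genes changed. Over all genes the number passing at EL38 was 507 with this block, 97 with the number range block and 50 with EL38 fitted alone, against 967. At EL33 and EL34 it was 8 and 76 with stages fitted alone, and 406 and 413 with the number range block, against 706 and 673. The F test passed for 55 to 968 genes over these settings, against 424. Fits with a block give exposure results only. The cause of these changes was not tested. Reads are given per group and not per library, and the counting error of a library was not estimated.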
